A study of Mus musculus with 6 samples.

Results

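The ligand genes Il1b and Il6 and the receptor chain genes Il6st, Csf2ra and Csf2rb were followed across arrays of mouse soleus, a postural hindlimb muscle, after 1 day of reloading. The 5 genes were chosen by symbol in the platform annotation. Each had 1 probe, so they account for 5 of the 223 probes on the array. All 6 samples formed a single group, titled wild type, of soleus from C57Bl/6 mice described as reloaded. RNA came from cryosections of the muscle. The labels numbered the replicates 1 to 6 and gave no age, and they did not say that each sample was a different animal, so every spread and p-value below measures the spread between these samples, which may be technical. No muscle before or without reloading was analysed here, so the values describe levels after reloading and not a response to it.

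Interleukin 1 beta, encoded by Il1b, and interleukin 6, encoded by Il6, are secreted signals of inflammation. Interleukin 6 is also made by contracting muscle fibres. It binds its own receptor chain, Il6ra, and the complex then engages gp130, the product of Il6st, which starts JAK and STAT signalling and is shared by several related cytokines. The receptor for granulocyte-macrophage colony-stimulating factor (GM-CSF) pairs an alpha chain, encoded by Csf2ra, with the common beta chain, encoded by Csf2rb, which also serves the interleukin 3 and interleukin 5 receptors. GM-CSF acts mainly on myeloid cells such as macrophages and granulocytes.

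The sequences before the starts of the genes are shown because those of the ligands differed in base composition from those of the receptor chains Il6st and Csf2ra. RefSeq promoters of GRCm38.p6 were found for these 4 of the 5 members, and Csf2rb was not examined in this way. Each line gives the 250 bases before the start, 5′ to 3′ on the strand of the gene, with motif matches in capitals. The windows are chr2:129371140-129371389 on the minus strand for Il1b, chr5:30012864-30013113 on the plus strand for Il6, chr13:112463820-112464069 on the plus strand for Il6st and chr19:61228419-61228668 on the minus strand for Csf2ra.
Il1b: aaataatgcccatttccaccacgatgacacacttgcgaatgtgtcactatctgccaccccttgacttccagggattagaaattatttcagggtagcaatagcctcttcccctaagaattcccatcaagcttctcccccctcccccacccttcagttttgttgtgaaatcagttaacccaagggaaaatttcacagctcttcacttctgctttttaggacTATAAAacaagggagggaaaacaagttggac
Il6: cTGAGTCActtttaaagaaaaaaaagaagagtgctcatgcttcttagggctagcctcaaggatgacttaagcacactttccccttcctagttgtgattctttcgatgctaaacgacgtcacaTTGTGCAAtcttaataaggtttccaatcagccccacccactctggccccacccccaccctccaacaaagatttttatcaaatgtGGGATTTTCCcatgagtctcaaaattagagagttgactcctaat
Il6st: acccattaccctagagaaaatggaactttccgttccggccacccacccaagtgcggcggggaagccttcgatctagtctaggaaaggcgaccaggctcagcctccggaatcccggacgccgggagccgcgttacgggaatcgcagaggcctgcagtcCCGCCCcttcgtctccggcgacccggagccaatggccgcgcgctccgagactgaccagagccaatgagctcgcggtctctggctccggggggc
Csf2ra: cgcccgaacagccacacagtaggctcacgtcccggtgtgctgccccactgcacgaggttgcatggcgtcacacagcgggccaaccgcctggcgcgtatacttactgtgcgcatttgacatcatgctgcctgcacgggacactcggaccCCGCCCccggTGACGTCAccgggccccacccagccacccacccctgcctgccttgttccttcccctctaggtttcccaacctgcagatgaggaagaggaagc
The ligand windows were poor in CpG dinucleotides and the receptor windows rich in them. The Il1b window held 2 CpG and 44.4% G and C, and the Il6 window 3 CpG and 42.8%. The Il6st window held 26 CpG and 66% G and C, and the Csf2ra window 17 CpG and 64.8%. Over 32851 promoter windows of the same length the medians were 6 CpG and 52.4%.

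Both strands were searched for 7 motifs, chosen after the sequences had been seen. No pair of matches overlapped. The Il1b window had a TATA box (TATAAA), which 12.4% of all windows held. The Il6 window had an NF-kB motif (GGGA and TTCC with 2 bases between them, in 1.21% of windows), an AP-1 motif (TGANTCA, in 6.75%) and a C/EBP motif (TTGNGCAA, in 2.61%). The NF-kB match lay at positions -44 to -35 from the start, the C/EBP match at -128 to -121 and the AP-1 match at -249 to -243. NF-kB, AP-1 and C/EBP factors are known activators of Il6 in inflammation. The Il6st and Csf2ra windows each had 1 GC box (GGGCGG, read on the opposite strand as CCGCCC, in 32.7% of windows), and Csf2ra had a cyclic AMP response element (TGACGTCA, in 1.55%). A STAT motif (TTCNNNGAA, in 7.02%) was found in 0 of the 4 windows. These are matches of letters only.

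The arrays differed in brightness, and replicates 1 and 6 stood apart. In the units of the deposited table, the intensities of replicate 1 summed to 165.3 and those of replicate 6 to 13.8, with replicates 2 to 5 at 35.2 to 41.3. Values at or below 0 occurred on every array. The size of the most negative value on an array was taken as its noise bound. This bound was 0.0144 on replicate 1 and 0.0011 to 0.0028 on the others, which equals 8.59% to 22.3% of the median probe among the 175 probes that were above 0 on all 6 arrays. Il1b itself set the bound on replicate 1. Without the members the bound would have been 0.0096 there and the same on the others. Csf3 set it on replicate 4 and Mmp8 on replicates 3, 5 and 6. A probe that sets the bound of an array cannot exceed it there. Of the measured muscle markers, Myh7 of slow fibres, Myh1, Myh2 and Myh4 of fast fibres, and Des, Mb and Ttn exceeded the bound on all 6 arrays.

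The ligands did not rise above background, whereas all 3 receptor chains had signal above 0 on every array. Neither Il1b, with values above 0 on 0 of 6 arrays, nor Il6, with 1 of 6, exceeded the noise bound on any array. Il6st exceeded it on 6 of 6 arrays, and Csf2ra and Csf2rb each on 5 of 6. Among all 223 probes, 78.5% were above 0 on all arrays and 58.3% exceeded the bound on all arrays, so signal above 0 on every array was common and sets no receptor chain apart. Only 2.24% of probes were above 0 on no array, and 13.5% exceeded the bound on no array. In a muscle homogenate, fewer cells of a type and less RNA per cell cannot be told apart.

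Il1b had deposited intensities from -0.0144 to 0 with a median of -0.0016. The lowest value was on replicate 1 and the highest, exactly 0, on replicate 6. It was the lowest of all 223 probes on replicate 1 and ranked between 2 and 17 from the lowest on the others. Divided by the median probe of each array, its values ran from -0.22 to 0, with a mean of -0.10 ± 0.080 (SD, n = 6). The test gave no call (exact sign-flip permutation test, two-sided p = 0.0625, adjusted p = 0.073). With the value of exactly 0 on replicate 6, 0.0625 is the smallest p it can give. It therefore cannot decide whether the mean of Il1b lay below 0. Vhl, Edn2, Csf3r and an unnamed probe were the other probes above 0 on 0 arrays. Of these, Vhl, Edn2 and the unnamed probe also had a highest value of exactly 0 and the same p. Vhl encodes a subunit of the ligase that marks hypoxia factors for degradation, and Edn2 a vasoconstrictor peptide.

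Il6 had deposited intensities from -0.0014 to 0.0010 with a median of -0.0005. Replicate 1 held the single value above 0, and it was 0.069 times the noise bound of that array. On the median-scaled axis the values ran from -0.091 to 0.015, with a mean of -0.037 ± 0.039 (SD, n = 6). The test gave no call (exact sign-flip permutation test, two-sided p = 0.0938, adjusted p = 0.107). With 1 value above 0 and the rest below, it cannot give a p under 0.05 here. It therefore cannot decide whether the mean of Il6 lay below 0. Such values cannot tell an absent transcript from a rare one. They place both ligands below 22.3% of the median probe on replicate 1 and below 8.59% of it on replicate 4, the arrays with the widest and the narrowest relative bound.

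**Figure D1:**
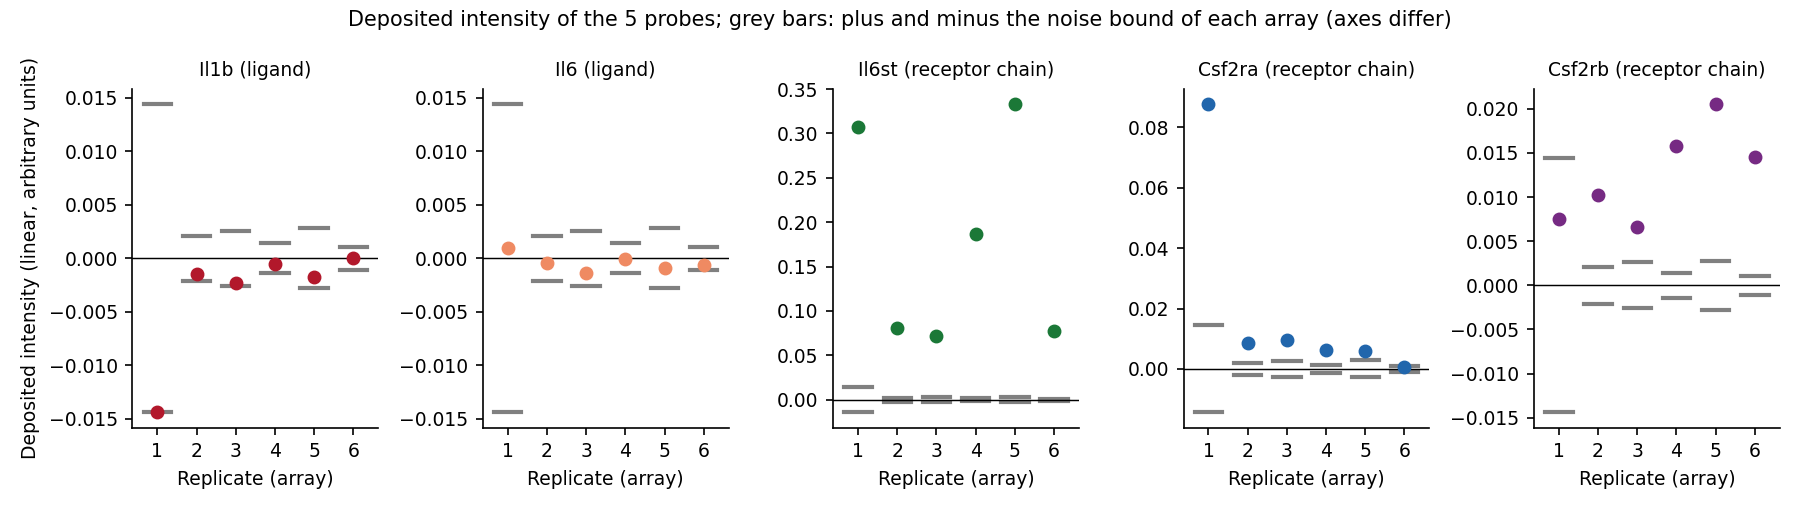
Deposited intensity (linear, arbitrary units) of each member probe on the 6 arrays, 1 point per array and an axis of its own for each gene; grey bars mark plus and minus the noise bound of the array. Il1b and Il6 lie within the bars on every array, Il6st lies above them on 6 of 6, Csf2ra falls inside them on replicate 6 and Csf2rb on replicate 1.

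Il6st, the gp130 gene, was far above background on every array and varied severalfold between samples. Its deposited intensity ran from 0.0713 to 0.333 with a median of 0.134, and it was 21.4 to 133.4 times the noise bound. On the median-scaled axis, where 1 is the median probe, the values were 4.63 to 5.41 on replicates 1 to 3, 11.5 on replicate 4, 19.7 on replicate 5 and 7.76 on replicate 6. Replicates 1 to 3 thus lay close together below the other 3 arrays. Its median-centred log2 intensity was 2.95 ± 0.83 (SD, n = 6), a 4.25-fold range between replicates 3 and 5. That SD ranked 115 from the lowest among 175 probes, whose median SD was 0.64. Replicate 5 was also highest in deposited units and after quantile normalization, but relative to 28S ribosomal RNA it was replicate 4. Of all 175 probes, 12% were highest on replicate 5.

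Csf2ra, the GM-CSF receptor alpha chain, was highest on replicate 1 and lowest on replicate 6. Its deposited intensity reached 0.0876 on replicate 1 against a range of 0.0060 to 0.0095 for replicates 2 to 5. It was 0.0008 on replicate 6, where it was 0.73 times the noise bound. On the median-scaled axis it ran from 0.081 to 1.35 with a median of 0.48. The median-centred log2 intensity was -1.26 ± 1.35 (SD, n = 6). The range of 16.8-fold became 12.2-fold with replicate 6 set to its bound. Replicates 1 and 6 stayed its highest and lowest arrays under the 3 other scalings tried (no scaling, quantile normalization, and division by the 28S ribosomal RNA probe).

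Csf2rb, the common beta chain, ran in the opposite order on the median-scaled axis. There it was lowest on replicate 1 at 0.12, had a median of 0.82 and was highest on replicate 6 at 1.46. Its deposited intensity ran only from 0.0066 to 0.0205, a 3.11-fold range, while summed intensity differed 11.9-fold between arrays. On replicate 1 it was 0.52 times the noise bound. The median-centred log2 intensity was -0.68 ± 1.34 (SD, n = 6), and its 12.6-fold range became 6.58-fold with replicate 1 set to its bound. In deposited units replicate 5 was highest and replicate 3 lowest, and relative to 28S these were replicates 4 and 1. On the median-centred scale Csf2ra and Csf2rb had SDs that ranked 159 and 158 of 175 from the lowest. Each rested on the array under the noise bound: the SD of Csf2ra was 0.77 without replicate 6, and that of Csf2rb 0.71 without replicate 1. In deposited units the SD of Csf2rb ranked 11 and that of Csf2ra 169.

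All 3 receptor chains passed the test against 0 (exact sign-flip permutation test, two-sided p = 0.03125, adjusted p = 0.040 for each). With 6 arrays 0.03125 is the smallest p this test can give. It passes adjustment because 175 of 223 probes, 78.5%, were above 0 on every array and were called, and 1 probe, 0.448%, was called below 0. A p under 0.05 needs all 6 values on the same side of 0, so a call adds nothing to the signs of the 6 values. The ligands gave 0 calls of 2 in either direction, and at an unadjusted p under 0.05 also 0. For neither ligand was a call possible. The value of Il1b on replicate 6 was exactly 0, and Il6 had values on both sides of 0.

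On the median-centred scale the subunits of the GM-CSF receptor ordered the 6 samples in exactly opposite ways. The order from lowest to highest was replicates 6, 5, 4, 2, 3 and 1 for Csf2ra and the reverse for Csf2rb. The orders were also opposite after quantile normalization. They were not exactly opposite with no scaling, where Csf2rb was lowest on replicate 3 and highest on replicate 5. Nor were they relative to 28S, where Csf2rb was highest on replicate 4. Spearman's rho was -1 (exact permutation p = 0.00278, adjusted p = 0.0497) and Pearson's r, at -0.84, did not pass (exact permutation p = 0.053, adjusted p = 0.19). With replicates 1 and 6 left out, on each of which 1 of the pair was under the noise bound, r was -0.94 over 4 arrays. It was -0.57 with no scaling, -0.65 relative to 28S and -0.91 after quantile normalization. Of 175 probes, 22.9% were highest on replicate 1 and lowest on replicate 6, as Csf2ra was, and 13.1% were lowest on replicate 1 and highest on replicate 6, as Csf2rb was. Opposite ends for a pair of probes are therefore not particular to this receptor.

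Array brightness and muscle fibre genes moved with this order. The arrays ordered by summed intensity, from the brightest, were replicates 1, 3, 2, 5, 4 and 6, close to the order of Csf2ra. The summed median-scaled level of the 3 fast fibre markers was 167.0 on replicate 1 and 56.8 on replicate 6, and Myh7 was at 117.8 and 39.0 on the same arrays. The 28S probe ran the other way, with r = 0.73 against Csf2rb (exact permutation p = 0.075, adjusted p = 0.23) and -0.15 without replicates 1 and 6. The part of brightness or fibre content in the order of Csf2ra and Csf2rb was not tested.

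Il6st was nearer in pattern to Csf2rb than to Csf2ra on the median-centred scale, but neither relation passed the test. Its r with Csf2rb was 0.66 and rho 0.77 (exact permutation p = 0.14, adjusted p = 0.33 for r). Its r with Csf2ra was -0.40 and rho -0.77 (exact permutation p = 0.42, adjusted p = 0.60 for r). The sign of the second turned with the scaling, to 0.52 with no scaling and 0.25 relative to 28S.

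**Figure D2:**
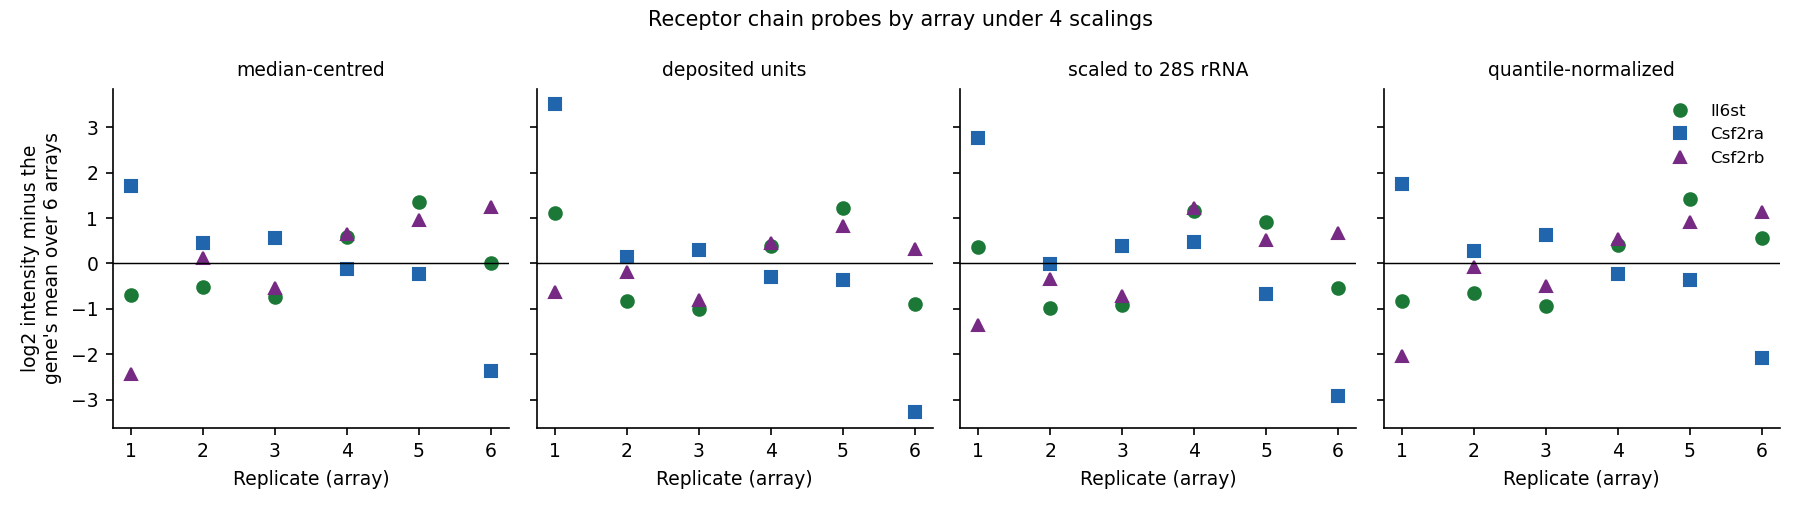
Log2 intensity of Il6st, Csf2ra and Csf2rb on each array minus the gene's own mean over 6 arrays, under 4 scalings, 1 point per array. Csf2ra is highest on replicate 1 and lowest on replicate 6 in every panel, whereas the lowest array of Csf2rb is replicate 1 in 3 panels and replicate 3 in deposited units.

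Csf2rb2 and Il6ra, subunits of related receptors, had patterns close to that of Csf2rb. Csf2rb2, the interleukin 3 receptor beta chain and a close copy of Csf2rb, exceeded the noise bound on 6 of 6 arrays, with deposited intensities from 0.0207 to 0.0692 and a median of 0.0342. Its r with Csf2rb was 0.97 and rho 0.94 (exact permutation p = 0.00278, adjusted p = 0.053 for r), 0.89 without replicates 1 and 6. The genes are near-identical in sequence, so signal of one on the probe of the other cannot be told apart here. Il6ra, the chain that binds interleukin 6, exceeded the bound on 5 of 6 arrays and ran from 0.0040 to 0.0180 with a median of 0.0112. Il6ra had r = 0.95 with Csf2rb (exact permutation p = 0.00556, adjusted p = 0.071) and 0.59 with its signalling partner Il6st (adjusted exact permutation p = 0.41). Il6ra was lowest on replicate 1 and highest on replicate 6, as Csf2rb was. With replicates 1 and 6 left out, its r was 0.85 with Csf2rb and 0.66 with Il6st.

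**Figure D3:**
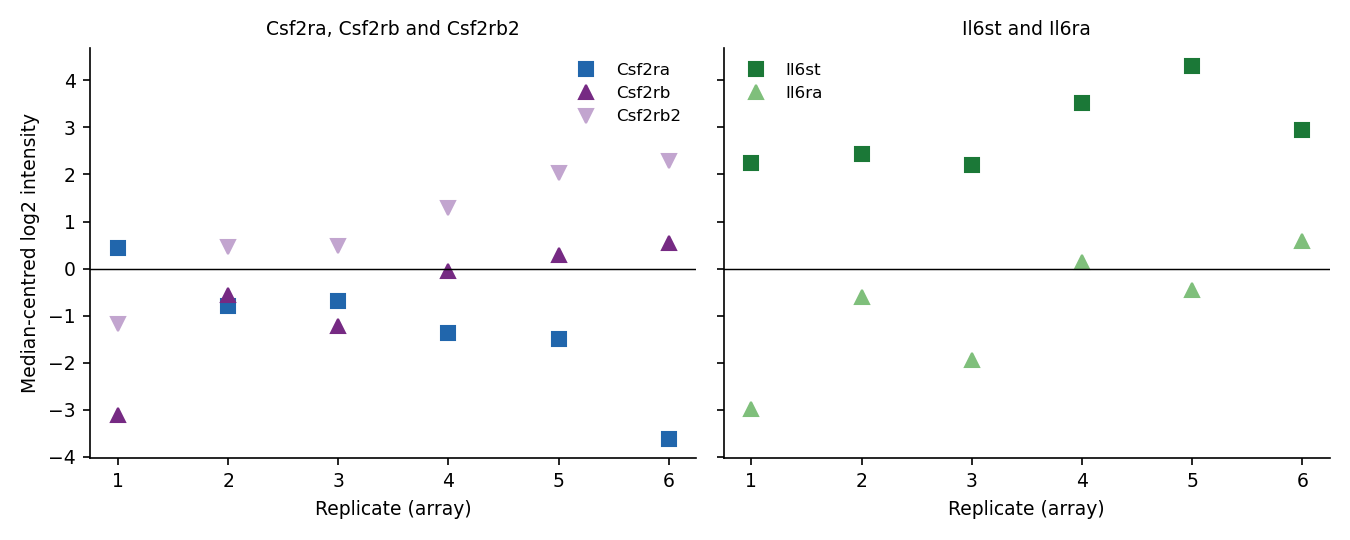
Median-centred log2 intensity of Csf2ra, Csf2rb and Csf2rb2 (left) and of Il6st and Il6ra (right) on each of the 6 arrays, 1 point per array; heights of different probes are not comparable. Csf2ra is highest on replicate 1 and lowest on replicate 6, while Csf2rb, Csf2rb2 and Il6ra are lowest on replicate 1 and highest on replicate 6.

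The probes most like each receptor chain were found among the 174 other probes above 0 on all arrays. By Pearson's r, 0 of 174 (0%) passed adjustment for any of the 3 chains (exact permutation tests). At an unadjusted p under 0.05 there were 13 for Il6st (7.47%), 69 for Csf2ra (39.7%) and 53 for Csf2rb (30.5%). By Spearman's rho, 2 (1.15%), 14 (8.05%) and 14 (8.05%) passed adjustment.

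Il6st had its highest r with Angpt2 (r = 0.97), a ligand that loosens vessel walls, followed by the laminin chain Lama3 (0.91) and the endothelial adhesion molecule Pecam1 (0.90). Next were the IGF-binding protein Igfbp2 (0.87) and a probe of Igf1 (0.86). The other Igf1 probe was not among these 5 and is not described here. Ucp3, a mitochondrial carrier, and Cast, the calpain inhibitor, had the lowest r, at -0.89 and -0.86. Of these probes, Lama3 exceeded the noise bound on 5 of 6 arrays and Igfbp2 on 4. With no scaling and relative to 28S, the r of Angpt2 and Pecam1 was 0.92 to 0.98, that of Igfbp2 and Igf1 0.74 to 0.81, and that of Lama3 0.57 and 0.67. The r of Ucp3 turned to 0.48 and 0.28, and that of Cast to 0.32 and -0.029. Without replicates 4 and 5, the arrays farthest from the median of Il6st, the 5 highest r were 0.73 to 0.97, while Cast had -0.90 and Ucp3 -0.38. The summed level of the 7 measured endothelial markers (Pecam1, Cdh5, Kdr, Flt1, Tek, Nos3 and Ace), of which 6 exceeded the bound on all arrays, ran from 9.01 on replicate 1 to 15.5 on replicate 5, the array on which Il6st was also highest. The exception was Nos3, above the bound on 2 arrays. Most of that difference came from Pecam1, at 2.89 and 7.91 on those arrays, and the other 6 markers summed to 6.12 and 7.62 there, with their highest sum, 8.57, on replicate 4. The part of endothelial content was not tested.

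Csf2ra was most like Cd44 (r = 0.99), a hyaluronan receptor of leukocytes and other cells, then Adam2 (0.98), the cell cycle inhibitor Cdkn1a (0.98), the medium-chain acyl-CoA dehydrogenase Acadm (0.97) and the topoisomerase Top1 (0.97). Without replicates 1 and 6, the arrays farthest from its median, these r were 0.78 to 0.89. With no scaling and relative to 28S they were 0.99 to 1.00. A high r on those scales was not particular to these 5 probes. Rb1 and Tgfb1, for example, had r = 0.05 and 0.08 with Csf2ra on the median-centred scale. With no scaling they had 0.96 and 0.92, and relative to 28S 0.79 and 0.76. On the median-centred scale an unnamed probe (-0.98) and the gelatinase Mmp2 (-0.96) had the lowest r. The relation with Mmp2 was lost without replicates 1 and 6 (r = 0.21), and r was -0.15 with no scaling and -0.49 relative to 28S. Cdkn1a and Mmp2 exceeded the noise bound on 5 of 6 arrays, Adam2 on 4 and the unnamed probe on 3. Csf2rb was most like the topoisomerase Top3a (0.99), the angiogenin Ang (0.97), the angiotensin receptor Agtr2 (0.97), Csf2rb2 (0.97) and the laminin chain Lamb2 (0.96), and least like the AP-1 subunit Jund (-0.96) and the integrin chain Itgb1 (-0.94). Replicates 1 and 3 were farthest from its median, and without them the r of these 7 probes was 0.86 to 1.00 or -0.98 to -0.93. With no scaling and relative to 28S, Lamb2 had r = 0.24 and 0.67, and Jund and Itgb1 had -0.67 to -0.63. Top3a, Ang, Agtr2 and Csf2rb2 had 0.84 to 0.99. Agtr2 exceeded the noise bound on 5 of 6 arrays and Top3a on 4.

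Other ligands and receptors on the array were found on both sides of background. Of 54 genes of cytokine signalling and inflammation on the list, 12 were measured, the 5 members included. In all, 7 of the 12 were called above 0 and 1 below, against 78.5% and 0.448% of all probes (exact sign-flip permutation test). Without the members, 4 of 7 were called above 0 and 1 below. Among ligands, Csf3, which drives granulocyte production, was above 0 on 1 of 6 arrays and above the bound on 0. Tgfb1, a growth factor of matrix repair, exceeded the bound on all 6 and had a median-scaled mean of 1.40 ± 0.23 (SD, n = 6). Among receptors, Csf3r, the Csf3 receptor of granulocytes, was below 0 on every array, from -0.0043 to -0.0004, and was the probe called below 0 (exact sign-flip permutation test, two-sided p = 0.03125, adjusted p = 0.040).

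The enzymes of the list differed. Nos2, the inducible nitric oxide synthase, exceeded the bound on 3 arrays. Hmox1, haem oxygenase, exceeded it on 6 arrays, and ran from 0.45 to 4.57 on the median-scaled axis with its highest value on replicate 1 and its lowest on replicate 6. Of 40 genes on the list of receptor signalling, 5 were measured, all subunits of the AP-1 factor. Jun, Jund and Fosl2 exceeded the bound on 6 arrays, Fosl1 on 4 and Junb on 0. The lists of monocyte or macrophage, neutrophil, lymphocyte, red blood cell and nerve markers had 0 measured genes, so these cells could not be checked. Of the other lists, the pericyte and fibroblast genes Pdgfra and Pdgfrb, the adipocyte gene Fabp4 and the myoblast genes Myod1 and Myog exceeded the bound on 6 arrays, and the early myogenic gene Myf5 on 1.

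**Figure D4:**
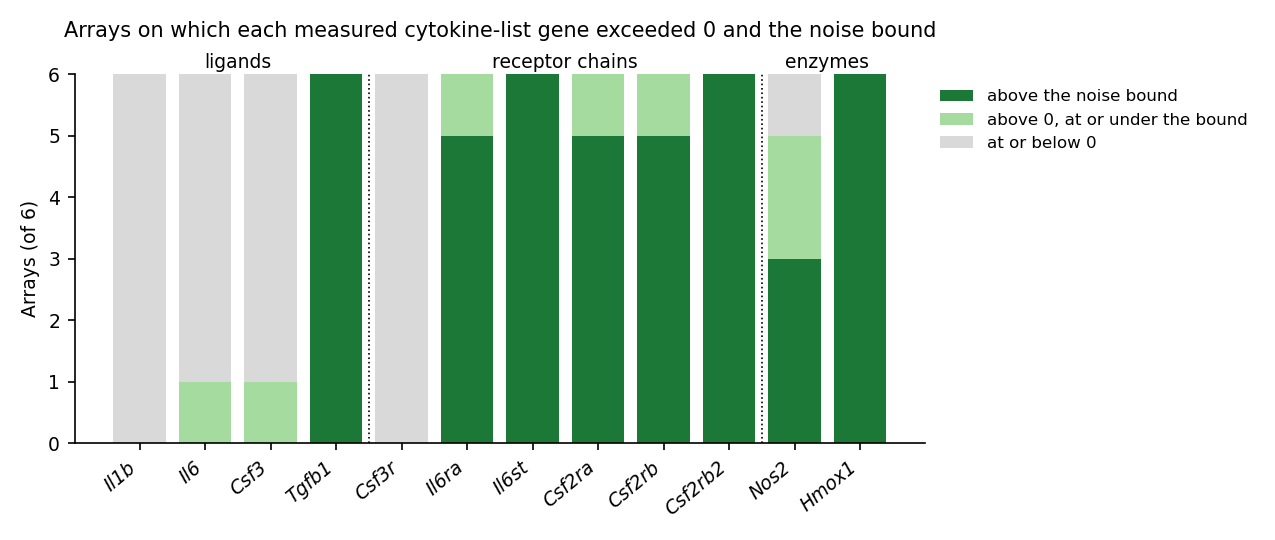
Number of the 6 arrays on which each of the 12 measured genes of the cytokine list exceeded the noise bound (dark), lay above 0 at or under the bound (light) or lay at or below 0 (grey), grouped into ligands, receptor chains and enzymes. Il1b, Il6 and Csf3 exceed the bound on 0 arrays and Tgfb1 on 6, and among receptor chains only Csf3r exceeds it on 0.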

How the data were processed

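Total RNA, 3 micrograms per sample, was profiled on 6 arrays. The deposited table holds linear intensity values, some of them below 0. A subtracted background would give such values, and 0 was taken as the background level. No source used here gives the array type, scanner, background method or normalization. All 6 columns were matched to samples by their headers.

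The gene of each probe came from the platform annotation. Each array was divided by its median over the 175 probes above 0 on all 6 arrays, and log2 values of these probes were centred on the same median, with no pseudocount. The mean of each of 223 probes was tested against 0 by an exact two-sided sign-flip permutation test, adjusted over all probes by Benjamini and Hochberg. Correlations over the 6 arrays had exact two-sided permutation tests over all 720 pairings, adjusted over 519 pairs. The threshold was an adjusted p of 0.05. Both tests were tested on simulated data. Python 3.11.15, numpy 2.4.6, pandas 2.3.3 and scipy 1.17.1 were used. The alternatives were other scalings, other bounds, other probe filters, a pseudocount, rank-based tests and leaving out each array.

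The members and gene lists were chosen with earlier results of these data known. The genes named are the members, all measured genes of the cytokine, signalling and marker lists, probes above 0 on 0 arrays, and for each receptor chain the 5 probes of highest and the 2 of lowest Pearson r. Other genes are named as chosen after their values were seen.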

Additional observations from a re-analysis of the deposited data

Results flagged for a closer look

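Of 22 sets of 6 values, 2 held an array set off from its neighbour by more than 0.625 of the range. Chance would give about 1.1 (about 1 in 20) if no array stood apart in brightness. Both concern replicate 1, the brightest array, in deposited units, so their number cannot be read against that rate. The deposited intensity of Csf2ra on replicate 1, 0.0876, lay 0.900 of the range above the next array. That of Il1b on replicate 1, -0.0144, lay 0.840 of the range below the next. After division by the median of each array, 0 of the 17 measured genes of the cytokine and signalling lists held such an array.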

How the results depend on the processing

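The count of members called above 0 was 3 with no scaling, relative to 28S, with named probes only and with signed ranks. Since all values of these 3 were above 0, and scaling cannot change a sign, these settings could not change it and say nothing about stability. Without any single array 3 members were above 0 on all arrays left. With 5 arrays the smallest two-sided sign-flip p is 0.0625, so that count then has no test. The count of members above the noise bound on all arrays was 1 (Il6st), and 1 to 2 without single arrays: Csf2rb joined without replicate 1 and Csf2ra without replicate 6. It was 3 with a bound of 0 and 3 without replicates 1 and 6 together, an alternative chosen after seeing the data. Doubling the bound, or taking it from other probes, left 1. The SDs ranged without single arrays from 0.56 to 0.93 for Il6st, 0.77 to 1.51 for Csf2ra and 0.71 to 1.50 for Csf2rb. Probes correlated with Il6st, Csf2ra and Csf2rb after adjustment numbered 0 each by Pearson's r, against 2, 14 and 14 by Spearman's rho and 1, 15 and 1 after scaling to 28S. The r of Il6st with Csf2ra reversed to 0.52 with no scaling and 0.25 after scaling to 28S; the cause was not tested. Without single arrays the r of Csf2ra with Csf2rb ran from -0.99 to -0.81. No paired analysis was possible because there was a single group. Signal near background limits Csf2ra on replicate 6 and Csf2rb on replicate 1.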

Other observations

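The array also held receptors of the same structural family for hormones, chosen after their values were seen. Ghr, the growth hormone receptor, exceeded the noise bound on 6 of 6 arrays with a median-scaled mean of 1.40 ± 0.30 (SD, n = 6) and a 1.77-fold range, with an SD that ranked 16 of 175 from the lowest. Epor, the erythropoietin receptor, was above 0 on 6 arrays and above the bound on 3. Ghr had r = 0.96 with Csf2rb on the median-centred scale (exact permutation p = 0.00278, adjusted p = 0.053) and -0.19 in deposited units.

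Of the proteases on the array, Mmp8, the neutrophil collagenase, Mmp9, a gelatinase, and Mmp12, the macrophage elastase, were also at background. Each was above 0 on 1 of 6 arrays and above the bound on 0. The same held for Mmp3. The other named Mmp genes differed: Mmp11 was above the bound on 4 arrays, Mmp2 on 5, and Mmp10 and Mmp14 on 6. Of other proteases, Plau was above the bound on 5 arrays and Ctsh on 6. Btk, a kinase of B cells and myeloid cells, was above the bound on 4 arrays and Vcam1, an adhesion molecule of activated endothelium, on 5.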
